A study of Mus musculus with 8 samples.

Results

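A set of 7310 genomic regions held peaks of both the NanogBiD fusion and BRG1, held a called peak of neither in cells given wild-type NANOG, and carried no H3K27ac peak in either condition. The regions were chosen by measured peaks. FLAG and BRG1 peaks of NanogWT and NanogBiD cells that overlapped or touched were merged into 93352 regions, of which 10376 held a FLAG and a BRG1 peak in NanogBiD and neither in NanogWT. Of these fusion-only regions, the 7310 without an H3K27ac peak of either arm were kept, which is 70.5% of the fusion-only regions (95% Wilson interval 69.6 to 71.3%) and 7.83% of all regions. The remaining fusion-only regions comprised 2369 with H3K27ac in NanogBiD alone, 107 with it in NanogWT alone and 590 with it in both. All peaks in FLAG, BRG1 and H3K27ac lists were used by this rule, so their presence or absence at the regions is a description and not a result.

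The 8 CUT&Tag libraries came from mouse embryonic fibroblasts carrying an Oct4-GFP reporter, at day 5 after retroviral delivery of factors in iCD3 medium. Both arms received Oct4. The NanogWT arm received in addition full-length Nanog, and the NanogBiD arm received Nanog carrying at its N terminus the part of SS18 that binds BRG1. The labels call the fusion NanogN70, a name taken here to mean NanogBiD because the study describes an SS18 part joined to the N terminus of NANOG; its text was not found to use the labels' name. CUT&Tag sequences the DNA cut by a transposase that an antibody has brought to a chromatin protein, and antibodies to the FLAG tag on NANOG, to BRG1, to H3K27ac and to H3K4me1 gave 1 merged library for each target in each arm. The factors were delivered by retrovirus to a mixed culture, so a low summit from many cells and a high signal in few cells cannot be told apart. Each list pooled its replicates, so the spread between cultures is unknown for every comparison of the arms. Intervals given here cover counting error over regions only, and neighbouring regions are not independent.

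NANOG is a homeodomain transcription factor of the pluripotency network and OCT4 is its partner in that network. BRG1 is the ATPase of the BAF complexes, which slide and evict nucleosomes, and SS18 is a subunit of these complexes. H3K27ac marks active enhancers and promoters, whereas H3K4me1 also marks enhancers that are primed or inactive. A region with a factor and a remodeller but without H3K27ac is therefore a place where the state of H3K4me1 is of interest.

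The regions were ranked by whichever of their FLAG and BRG1 peak scores was the smaller, and the 6 highest are shown first, since both signals were strong there by the peak caller's own measure. Each line gives the mm10 interval of the region on the reference strand, followed by the 101 bp centred on the NanogBiD FLAG summit. Letters in capitals mark matches to the motifs searched (a RUNX match in the second, a NANOG match in the fourth, a homeobox match in the fifth and a SOX match in the sixth), and the first and the third held none.
chr3:135775374-135777113: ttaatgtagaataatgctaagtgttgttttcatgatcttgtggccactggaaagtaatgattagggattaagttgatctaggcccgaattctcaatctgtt
chr5:85360270-85361216: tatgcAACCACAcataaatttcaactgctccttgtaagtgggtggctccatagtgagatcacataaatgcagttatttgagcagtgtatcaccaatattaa
chr3:148771178-148772571: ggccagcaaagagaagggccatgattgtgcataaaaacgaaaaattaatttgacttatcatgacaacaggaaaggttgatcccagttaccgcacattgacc
chr9:90459200-90461064: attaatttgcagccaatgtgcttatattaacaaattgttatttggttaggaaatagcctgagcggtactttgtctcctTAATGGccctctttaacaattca
chr6:93688329-93689951: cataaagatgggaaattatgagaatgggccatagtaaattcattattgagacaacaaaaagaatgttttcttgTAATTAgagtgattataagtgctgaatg
chr5:18450282-18452411: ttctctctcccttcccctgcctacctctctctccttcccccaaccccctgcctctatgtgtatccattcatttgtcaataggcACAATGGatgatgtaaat

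The first of these, 49.0 kb from the start of Slc39a8, had a FLAG summit of 38 tags and a BRG1 summit of 21 tags in NanogBiD. It had no H3K4me1 peak in either arm, and its nearest NanogWT FLAG peak lay 43.4 kb away. The second lay 360.1 kb from any annotated start and 704.9 kb from the nearest protein-coding start, that of Cenpc1. Its FLAG summit held 40 tags, its BRG1 summit 26 tags, and an H3K4me1 peak of 12 tags was present in NanogBiD alone. The third lay 51.1 kb from Adgrl2, which encodes an adhesion receptor, with 35 FLAG and 18 BRG1 tags and an H3K4me1 peak of 8 tags in NanogBiD alone. The fifth lay in an intron of Magi1, a scaffold protein of cell junctions, with 31 FLAG and 20 BRG1 tags and no H3K4me1 peak. The fourth had 25 FLAG and 15 BRG1 tags and the sixth 41 and 27 tags, both intergenic and without H3K4me1. Of the 10 highest regions by this value, 9 were intergenic and 1 was intronic. An H3K4me1 peak was present in NanogBiD alone at 4 of the 10, and at none of the 10 in NanogWT.

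Summits were modest in height. The FLAG summit of the regions ranged from 7 to 65 tags with a median of 15 (quartiles 12 and 19), equal to the median over all regions with a NanogBiD FLAG peak. The BRG1 summit ranged from 6 to 67 tags with a median of 10 (quartiles 9 and 12), below the median of 13 over all regions with a NanogBiD BRG1 peak. A BRG1 summit of at least 20 tags was reached at 147 regions, or 2.01%, and a FLAG summit of that height at 1718, or 23.5%. The FLAG summit was the taller of the pair at 6507 regions, although heights of different antibodies are not on a common scale. At 7291 of the 7310 regions there was exactly 1 FLAG and 1 BRG1 peak. Their summits lay a median of 65 bp apart, and 86.4% were within 200 bp. Across the regions the heights rose together (Spearman's rho 0.53 over 7310 regions, a description, since both come from the same cells and the same sequence composition).

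**Figure D1:**
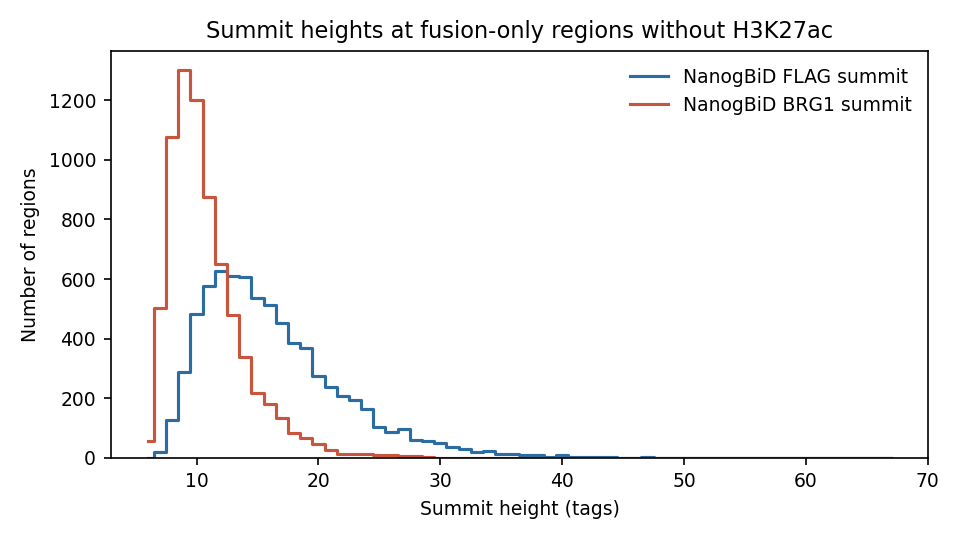
Number of regions (vertical axis) at each summit height in tags (horizontal axis) for NanogBiD FLAG and BRG1 at the 7310 fusion-only regions without H3K27ac. The BRG1 curve peaks below the FLAG curve, at medians of 10 and 15 tags.

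Some regions lay at the edges of the rule. A BRG1 score between the lowest listed value of 50 and 55 was held by 1108 regions, and a FLAG score in that range by 277. A NanogWT FLAG or BRG1 peak lay within 100 bp of 24 regions and within 1 kb of 427, with the nearest 3 bp away. An H3K27ac peak of either arm lay within 100 bp of 29 regions and within 1 kb of 354. Among the 3066 fusion-only regions left out for H3K27ac, 12 overlapped that mark by at most 100 bp, and the median overlap was 767.5 bp. Whether NanogWT lacked a peak also went with height. Of NanogBiD BRG1 peaks with summits of 6 to 9 tags, 19.4% overlapped a NanogWT BRG1 peak, against 93.0% of those with 30 tags or more. For FLAG the shares were 32.7% at 7 to 9 tags and 93.1% at 30 tags or more. The NanogWT lists were also shorter, with 30859 BRG1 peaks against 53748 and 58940 FLAG peaks against 74782. The part of these differences in list length and height in the absence of NanogWT peaks was not tested.

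H3K4me1 was the readout that the rule did not use. At most of the regions it was absent from both arms (5057, or 69.2%, interval 68.1 to 70.2%), and where it differed between arms it was more often present in NanogBiD. An H3K4me1 peak in NanogBiD alone was found at 1177 regions, or 16.1% (15.3 to 17.0%), and one in NanogWT alone at 445, or 6.09% (5.56 to 6.66%). Over all 93352 merged regions the order was the other way, with 9.52% in NanogBiD alone and 13.9% in NanogWT alone. With each list cut to its 20000 best peaks, the rule was applied again and gave 2261 regions. The gained share was 11.5% at those and 12% over all regions (difference from all other regions -0.53 points, -1.83 to 0.89), so the higher share was not kept. The lists cut by score, by rank or by summit height each drew the regions anew in this way, and the resulting sets are not subsets of the 7310. The H3K4me1 lists themselves held 57156 peaks in NanogBiD and 72242 in NanogWT, and the order over all regions went with that length. With the NanogWT list cut to its 57156 best-scoring peaks, a setting added after the data had been seen, the shares over all regions were 12.65% in NanogBiD alone and 10.1% in NanogWT alone, and those at the 7310 regions were 18.2% and 3.995%. A further 631 regions, or 8.63%, carried the mark in both arms, far below the 36.2% over all regions.

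The H3K4me1 peaks present in a single arm were low. Those in NanogBiD alone had a median summit of 12 tags (quartiles 10 and 13, highest 78), and 171 of the 1177 reached 15 tags. Those in NanogWT alone had a median of 13 tags, and 136 of the 445 reached 15 tags. When only peaks with summits of at least 15 tags were admitted to every list, the rule gave 2546 regions. At these the shares were 8.56% in NanogBiD alone and 8.48% in NanogWT alone, without an excess of gain over loss. Of the 7310 regions, 828 had a BRG1 summit of at least 15 tags, so most of the 2546 lay outside them. Such regions could qualify once lower NanogWT or H3K27ac peaks had been dropped. Under the same setting the shares over all regions were 6.41% and 16.6%. At the 631 regions marked in both arms, H3K4me1 summit height had a median log2 ratio of NanogBiD over NanogWT of -0.07 (quartiles -0.29 and 0.13), with 215 higher, 319 lower and 97 equal in NanogBiD. Over all 33813 regions with the mark in both arms it was -0.18.

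The regions were set beside 3 other classes. The first was the 2369 fusion-only regions with H3K27ac in NanogBiD alone, at which H3K4me1 was present in NanogBiD alone in 26% and in both arms in 25.8%. The share gained was thus 9.90 percentage points lower at the regions without H3K27ac (Newcombe 95% interval of the difference 7.97 to 11.89 points). The second was 15557 regions with a FLAG peak in NanogBiD alone, without BRG1 in either arm and without H3K27ac. There H3K4me1 was present in NanogBiD alone at 8.74% and in NanogWT alone at 6.68%. Relative to that class, the regions with BRG1 had a gained share higher by 7.37 points (6.42 to 8.33) and a lost share that differed by -0.59 points (-1.25 to 0.10). The difference in gained share kept its sign but was smaller under stricter lists, at 3.62 points (2.78 to 4.53) where only peaks scoring 100 or more were admitted, 3.16 points (1.49 to 4.86) with each list cut to its 20000 best peaks and 4.28 points (3.19 to 5.49) with summits of at least 15 tags. In the class without BRG1 the gained and lost shares were then 3.43% and 4.66%, 8.34% and 1.61%, and 4.28% and 7.44%. The difference in lost share had no settled sign, with 1.13 points (0.32 to 1.996) for the 20000 best peaks and -0.90 points (-1.56 to -0.20) where regions within 1 kb of a NanogWT peak were left out. The third was 449 regions with FLAG and BRG1 in NanogWT alone and without H3K27ac, where the direction was opposite, with 4.23% in NanogBiD alone and 37.6% in NanogWT alone.

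**Figure D2:**
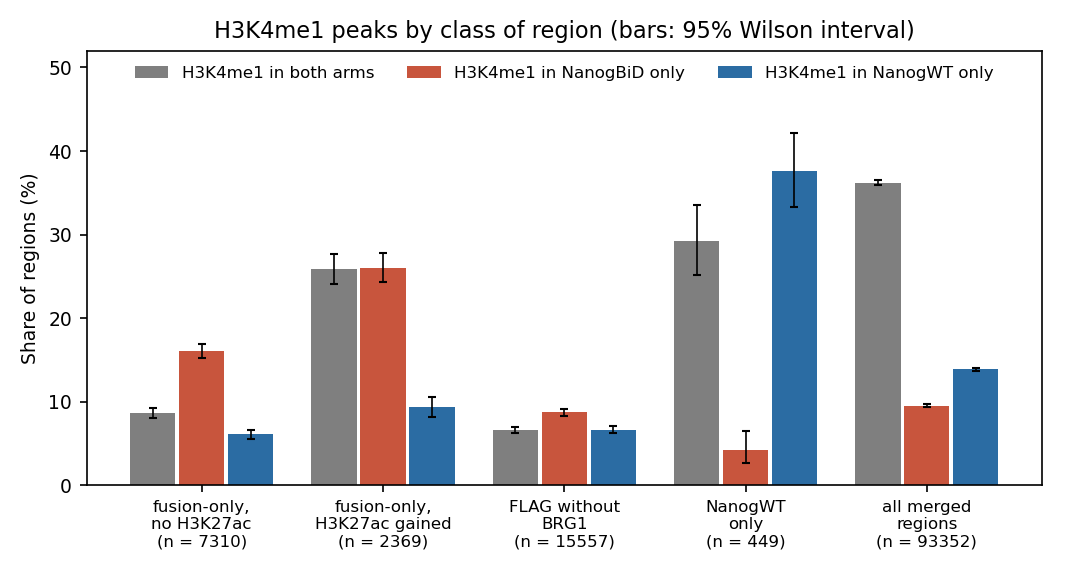
Share of regions (vertical axis, percent) with an H3K4me1 peak in both arms, in NanogBiD alone or in NanogWT alone, for each class of region, with 95% Wilson intervals as error bars. At fusion-only regions without H3K27ac the share in NanogBiD alone is 16.1% and that in NanogWT alone 6.09%, and over all merged regions they are 9.52% and 13.9% with the lists as deposited, an order that turns to 12.65% and 10.1% with H3K4me1 lists of equal length.

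The regions differed from the class without BRG1 in FLAG height and in length, with a median FLAG summit of 15 against 11 tags and a median length of 857 against 647 bp. H3K4me1 was therefore compared within ranges of FLAG height. At 7 to 11 tags, H3K4me1 was present in NanogBiD at 24.7% of the regions with BRG1 and at 15.7% of those without, and at 19 tags or more at 25.7% and 13.1%, a difference of 12.6 points (9.47 to 15.5). In NanogWT the corresponding shares were 22.0% and 15.3% at 7 to 11 tags and 8.97% and 8.45% at 19 tags or more. The share marked in NanogWT thus fell across the height ranges in both classes, from 22.0% to 17.1%, 12.98% and 8.97% at the regions with BRG1, while the share marked in NanogBiD at those regions stayed between 23.4% and 25.7%. Both classes were chosen for lacking a NanogWT FLAG peak. Such a peak was overlapped by 32.7% of NanogBiD FLAG peaks of 7 to 9 tags and 93.1% of those of 30 tags or more. The part of this choice in the fall was not tested, so the fall is a description. Weighting the class without BRG1 to the FLAG heights of the regions brought its gained share to 9.87% and the difference to 6.23 points. Counting only H3K4me1 peaks within 250 bp of the FLAG summit gave 15.9% gained and 5.66% lost at the regions with BRG1 and 8.67% and 6.45% at those without. Both of these calculations were added after the data had been seen. By BRG1 height the gained share was 14.2% at 6 to 8 tags and 18.6% at 13 tags or more.

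**Figure D3:**
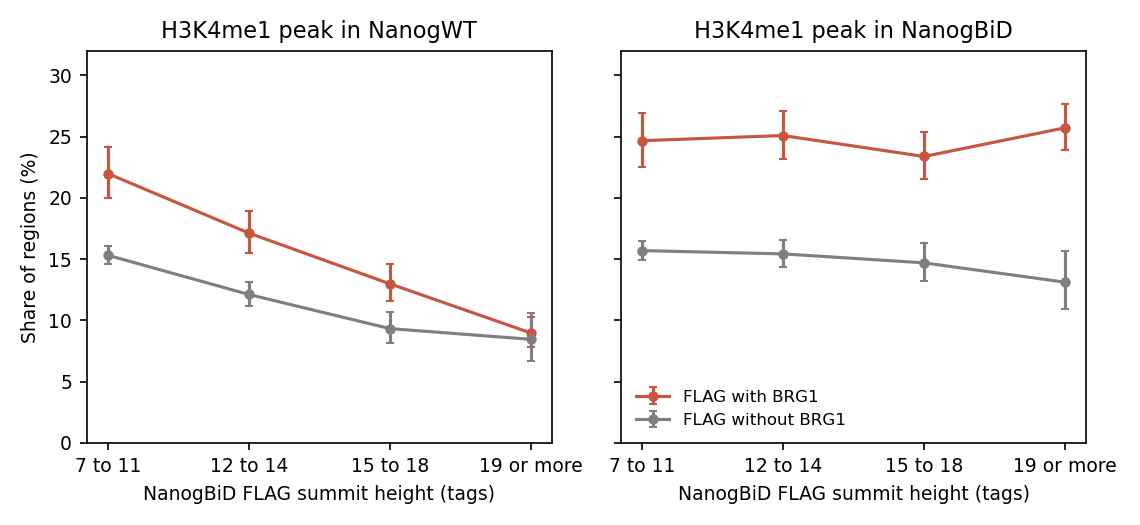
Share of regions (vertical axis, percent) with an H3K4me1 peak in NanogWT (left) or NanogBiD (right) by height of the NanogBiD FLAG summit in tags (horizontal axis), for regions bound by FLAG in NanogBiD alone and lacking H3K27ac, with and without BRG1. Error bars are 95% Wilson intervals. The share in NanogWT falls from 22.0% to 8.97% at regions with BRG1, and that in NanogBiD lies between 23.4% and 25.7%. All regions shown were chosen for lacking a NanogWT FLAG peak, and the part of that choice in the fall was not tested.

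The regions were mostly far from start sites. A promoter, taken as 2 kb either side of an annotated start, was overlapped by 809 regions, or 11.1% (10.4 to 11.8%), against 25.5% of all other regions (difference -14.4 points, -15.2 to -13.6). The rule left out regions with H3K27ac, a mark of active promoters. The part of that filter in this difference, and in the distances, GC and CpG set beside all regions below, was not tested. The share at regions with FLAG but without BRG1 was 11.1%, a difference of -0.03 points (-0.89 to 0.85). Under stricter lists it was -0.63 points (-1.76 to 0.56) for scores of 100 or more, 2.76 (1.04 to 4.52) for the 20000 best peaks and 1.43 (0.02 to 2.93) for 15 tags or more. The share at the regions that gained H3K27ac was 15.9%, a difference of -4.85 points (-6.53 to -3.25). Its interval included 0 only with the 20000 best peaks (-2.06 points, -5.18 to 0.75). The FLAG summit lay in an intron at 50.6% of the regions, in an exon at 3.47% and between genes at 45.9%. The median distance to a protein-coding start was 40.4 kb, compared with 39.4 kb in the class without BRG1, 27.2 kb at the regions that gained H3K27ac and 23.7 kb over all regions. More than 100 kb separated 30.9% of the regions from the nearest protein-coding start, and 402 regions lay more than 500 kb away. A median of 11 protein-coding starts lay within 1 Mb, against 12 in the class without BRG1 and 14 over all regions. Over the 501 bp around the summit the median GC content was 40.9%, with 4 CpG dinucleotides, against 41.3% and 4 in the class without BRG1 and 44.1% and 5 over all regions with a FLAG summit. Of the 809 regions at promoters, 59.7% lay at those of protein-coding genes, against 79.0% of all regions at promoters. H3K4me1 was gained at 17.7% of the regions at promoters and at 15.9% of those elsewhere.

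The regions were spread over all the chromosomes examined, from 6.19% of all regions on chromosome 7 to 9.11% on chromosome 18. They were largely solitary. Within 25 kb of each other, 1361 regions fell into runs and 5949 stood alone, and no run was longer than 4. Runs of 4 lay near Tmtc2, Adamts20, Vps8, Samsn1, Trim32 and Gm6993.

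Genes with the most regions, counted in the gene and the 20 kb on each side of it, were long. Auts2, a regulator of neuronal development, held 13 of the 78 merged regions in a window of 1146 kb, or 11.3 per Mb, and no fusion-only region with gained H3K27ac lay there. Fgfr2, a fibroblast growth factor receptor whose annotated span includes readthrough transcripts, held 12 regions in 3001 kb, of 166 merged regions there, and 6 fusion-only regions that gained H3K27ac. Pcdh15 and Ptprd, which encode a protocadherin and a receptor phosphatase of neurons, held 11 of 65 and 10 of 56 merged regions and no region with gained H3K27ac. Npas3, a neuronal transcription factor, held 10 of 54 merged regions and 4 that gained H3K27ac. Robo1, the receptor for Slit guidance cues, held 9 of 47 merged regions in 777.8 kb and none that gained H3K27ac. Rasgef1b held 9 of 43 merged regions in 551.6 kb, the highest density of these 10 genes at 16.3 per Mb, and none that gained H3K27ac. Immp2l held 9 of 40 merged regions and Astn2 8 of 59, with 1 and 4 regions that gained H3K27ac. The readthrough locus Gm20388 held 11 of 219 merged regions and 9 that gained H3K27ac. Its 2.46 per Mb was the lowest density of the 10 genes, below the 2.89 per Mb over all protein-coding genes. The regions made up 7.83% of all merged regions, a higher share than in the Fgfr2 and Gm20388 windows. These genes were ranked by number, and a longer gene can hold more regions.

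Over all 21728 protein-coding genes, 3947, or 18.2%, held at least 1 region by the same count, and the density was 2.89 regions per Mb of window. Of the 17 naive pluripotency factors listed, 3 held a region (Pou5f1 1, Esrrb 2 and Gbx2 2), and 14 held none, among them Nanog, Sox2 and Klf4. Of the 21 other pluripotency markers, Dppa5a and Dnmt3l held 1 each. In the list of 18 germ layer and trophoblast regulators, Gata4 held 1 region. Among 19 Sox genes, Sox5 held 7, Sox6 2 and Sox18 1. Of 24 fibroblast and mesenchymal genes, 8 held a region, with Col5a2 and Zeb2 holding 2 each and Col1a2, Col3a1, Fn1, Lum, Pdgfra and Zeb1 holding 1 each. Of 13 AP-1 and TEAD factor genes, Tead1 held 2 and Tead4 1. Of 18 neuronal adhesion and synapse genes, 14 held 68 regions between them in 22.4 Mb, a density of 3.03 per Mb that is close to that of all protein-coding genes. The regions formed 5.94% of the merged regions counted over all protein-coding genes. By list this share was 12.7% for the neuronal genes, 10.1% for the Sox genes, 9.62% for the naive factors, 5.49% for the mesenchymal genes, 3.49% for the AP-1 and TEAD factors and 3.12% each for the other pluripotency markers and the germ layer regulators, which outside the neuronal list rest on 1 to 10 regions each. Densities in the other lists ran from 1.03 per Mb for the germ layer regulators to 4.23 per Mb for the naive factors, which rest on 1 and 5 regions.

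The region at Pou5f1, which encodes OCT4, stood out by height. It spanned chr17:35510754-35515083, with its summit in an intron of the neighbouring gene Tcf19. Its FLAG summit of 65 tags and BRG1 summit of 67 tags were the tallest of all 7310 regions, and its H3K4me1 peak of 78 tags, in NanogBiD alone, was the tallest of those gained. Its peak scores, however, were only 126.8 for FLAG and 70.2 for BRG1, near the medians of 117.8 and 73.1, and the nearest NanogWT FLAG peak lay 7.59 kb away. The cells also carried delivered Oct4 and an Oct4-GFP reporter, and whether tags from either were placed at this region was not tested. At Gbx2, a homeobox gene of the naive network, the higher region lay 11.8 kb from the start, with 16 FLAG and 14 BRG1 tags and H3K4me1 of 16 tags in NanogWT and 20 in NanogBiD. At Esrrb, an orphan nuclear receptor, the higher region lay 11.3 kb from the start with 13 FLAG and 8 BRG1 tags, and H3K4me1 was listed in NanogWT alone, at 11 tags. The region at Dppa5a had 15 FLAG and 10 BRG1 tags and no H3K4me1. The region at Dnmt3l, a cofactor of DNA methyltransferases, had 14 FLAG and 9 BRG1 tags and H3K4me1 of 16 tags in NanogWT and 11 in NanogBiD. Of these 5 regions, H3K4me1 was therefore gained at 1 (that at Pou5f1), lost at 1, present in both arms at 2 and absent at 1.

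Sequence at the FLAG summits was searched for 14 short motifs on both strands, in the 101 bp around the summit, and in windows of the same length 1 kb to either side. The letters searched were TGAGTCA for AP-1, the octamer ATGCAAAT for OCT factors, ACAATGG and its variant ACAAAGG for SOX, TAATGG for NANOG, TAATTA for homeobox factors, GGAATG for TEAD, TGTGGTT for RUNX, AGATAA for GATA factors, TGTTTAC for FOX, AAGGTCA for ESRRB, GGGTGTGG for KLF and TGACGTCA for CRE, with a composite OCT-SOX site and CTCF searched by their consensus. The composite site contains most of the octamer and can share letters with the SOX word, and each motif was counted without regard to the others. The highest-ranked regions holding an AP-1, an octamer and a composite OCT-SOX match are shown, with the matches in capitals, to display these letters in their setting. Those holding the NANOG and the SOX match were the fourth and the sixth shown above.
AP-1, chr3:118750257-118751419: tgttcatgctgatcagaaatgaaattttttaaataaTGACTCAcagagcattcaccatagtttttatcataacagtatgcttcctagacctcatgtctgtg
OCT octamer, chr9:91456258-91457317: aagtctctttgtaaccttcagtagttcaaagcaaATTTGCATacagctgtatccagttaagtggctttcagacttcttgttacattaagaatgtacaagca
OCT-SOX composite, chr1:55672005-55672993: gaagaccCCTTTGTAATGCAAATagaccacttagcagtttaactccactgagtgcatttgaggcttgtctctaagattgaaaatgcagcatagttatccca

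The AP-1 example lay in an intron of Dpyd, an enzyme of pyrimidine breakdown, with 22 FLAG and 17 BRG1 tags. The octamer example lay in an intron of Gm29478, 74.2 kb from the start of Zic4, with 28 FLAG and 15 BRG1 tags. The composite example lay in an intron of Plcl1 with 16 FLAG and 14 BRG1 tags and an H3K4me1 peak of 12 tags in NanogWT alone. The first 2 had no H3K4me1 peak in either arm.

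AP-1, NANOG, homeobox and octamer letters had the largest differences in percentage points between summits and flanks. The NANOG word was present at 806 summits, or 11.03% (10.3 to 11.8%), against 4.18% of flanking windows. AP-1, the binding site of FOS and JUN dimers, was present at 659 summits, or 9.02% (8.38 to 9.69%), against 1.78%. The homeobox word was present at 8.63% against 3.69%, and the octamer bound by OCT4 at 3.83% (280 summits) against 0.677%. SOX matches were present at 5.75% against 3.67% and RUNX matches at 4.09% against 2.21%. The composite OCT-SOX site was found at 16 summits, or 0.219%, against 0.0274% of flanks, which is the highest ratio of summits to flanks of the 14 motifs, at 8. By that ratio the octamer (5.66) and AP-1 (5.07) came next, and CTCF (4.29, on 15 summits) and CRE (4, on 14 summits) stood above NANOG (2.64) and homeobox (2.34). GATA matches did not differ beyond counting error (6.74% and 6.83%, difference -0.09 points, -0.78 to 0.63), and ESRRB matches were fewer at summits (1.30%) than in flanks (1.97%). None of the AP-1, octamer, SOX, NANOG and homeobox letters was found at 4883 regions, or 66.8%, a single motif of these at 2078, and 2 or more at the remainder.

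**Figure D4:**
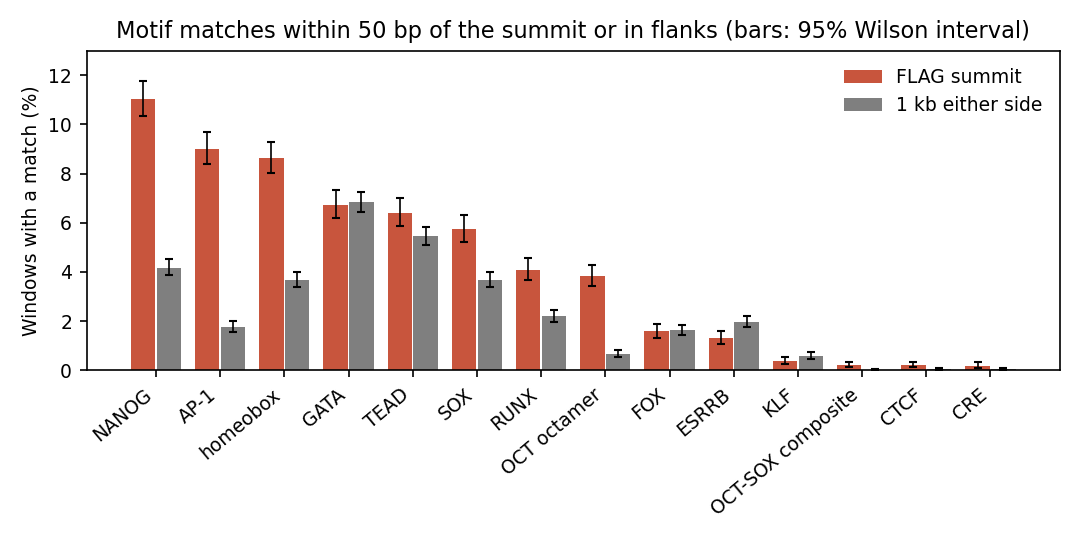
Share of 101-bp windows with a match (vertical axis, percent) for each motif, at the FLAG summits of the 7310 regions and in windows 1 kb to either side, with 95% Wilson intervals as error bars. AP-1, NANOG, homeobox and octamer letters differ most between summits and flanks in percentage points, whereas GATA is at 6.74% and 6.83%.

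AP-1, NANOG, homeobox and octamer matches were concentrated close to the summit. GATA matches were not, with 13.7 per 1000 regions at the summit against 15.7 and 14.9 at 1 kb to the left and right, nor were TEAD matches, with 13.3 against 14.4 and 12.3. In bins of 20 bp, AP-1 matches reached 23.9 per 1000 regions at the summit, against 3.83 and 3.69 at 1 kb to the left and right. NANOG matches reached 27.1 per 1000 in the bin 40 bp to the left and 25.6 in that 40 bp to the right, with 22.3 at the summit itself. Homeobox matches were lower at the summit (11.6 per 1000) than 20 bp to either side (20.7 and 22.2). Octamer matches likewise reached 10.5 and 9.99 per 1000 at 20 bp to either side and 6.98 at the summit. At the BRG1 summit in place of the FLAG summit, the AP-1 share was 8.25% and the octamer share 2.90%.

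**Figure D5:**
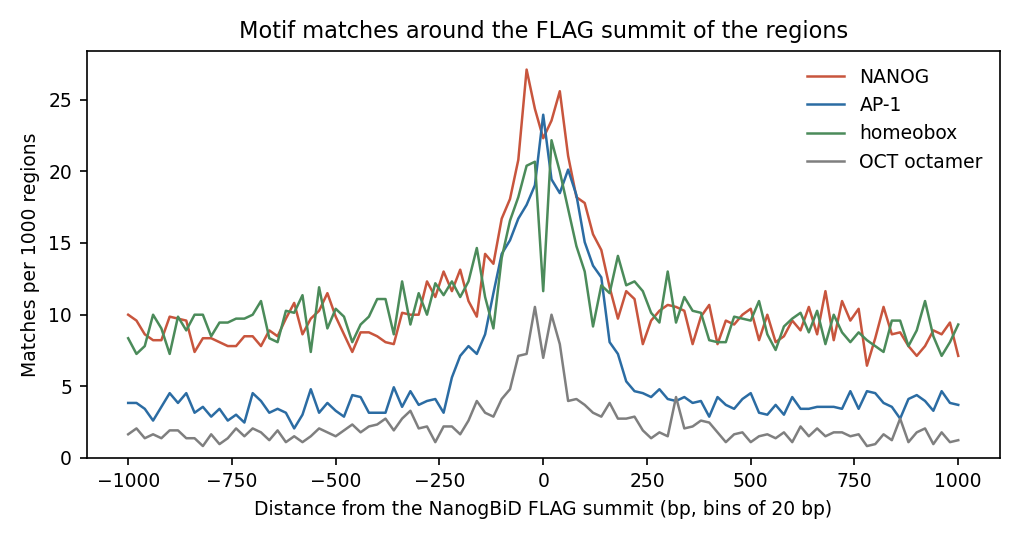
Matches per 1000 regions (vertical axis) in bins of 20 bp by distance in bp from the NanogBiD FLAG summit (horizontal axis) for NANOG, AP-1, homeobox and octamer letters. AP-1 matches peak at 23.9 in the summit bin, whereas homeobox matches show a dip to 11.6 there.

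NANOG, homeobox, SOX and octamer letters were less frequent at the regions with FLAG and BRG1 peaks in NanogWT alone. The octamer was found at 2 of 448 NanogWT-only regions, or 0.446%, lower than at the fusion-only regions without H3K27ac by 3.38 points (2.15 to 3.95), homeobox letters at 2.90% (lower by 5.73 points, 3.64 to 7.10), SOX letters at 1.79% (lower by 3.96 points, 2.19 to 5.00) and the NANOG word at 4.02% (lower by 7.01 points, 4.66 to 8.65). The interval of the octamer difference included 0 where only peaks scoring 100 or more were admitted (-0.56 to 3.77 points) and with summits of at least 15 tags (-2.79 to 4.24 points). AP-1 letters were found at 6.92% of NanogWT-only regions, a difference within counting error with the lists as deposited (2.10 points, -0.71 to 4.21). The interval excluded 0 with the 20000 best peaks (4.96 points, 2.26 to 7.13), but not for scores of 100 or more (1.67 points, -3.78 to 5.26) or 15 tags or more (4.63 points, -3.19 to 8.49). TEAD letters were more frequent at NanogWT-only regions (10.3% against 6.42%). The regions that gained H3K27ac had AP-1 and octamer shares of 8.53% and 3.34%, differences of 0.49 points (-0.86 to 1.74) and 0.50 points (-0.41 to 1.29). With summits of at least 15 tags these became -3.96 points (-6.54 to -1.56) and -0.16 points (-1.75 to 1.21), and the octamer difference was -1.53 points (-3.65 to 0.20) with the 20000 best peaks. The regions that gained H3K27ac also had a lower NANOG share of 8.11% (difference 2.92 points, 1.56 to 4.19). Regions with FLAG but without BRG1 had 6.82% AP-1, 2.77% octamer, 9.75% NANOG and 7.09% homeobox. The octamer difference from that class, 1.06 points (0.56 to 1.59), had intervals that included 0 under all 3 stricter lists, at 0.49 points (-0.19 to 1.22) for scores of 100 or more, 0.54 points (-0.51 to 1.63) for the 20000 best peaks and 0.71 points (-0.08 to 1.61) for 15 tags or more. Weighted to the FLAG heights of the regions with BRG1, the shares in AP-1, octamer, NANOG and homeobox letters became 7.46%, 3.11%, 11.3% and 7.48%, so that the difference in the NANOG word, 1.28 points before weighting, became -0.26 points, while that in AP-1 was 1.56 points. The AP-1 shares with and without BRG1 were 9.52% and 6.54% at FLAG summits of 7 to 11 tags, and 8.44% and 8.32% at 19 tags or more, where they did not differ beyond counting error.

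The motifs followed FLAG height differently. The NANOG share rose from 6.84% at 7 to 11 tags to 9.26%, 10.97% and 15.6% at 19 tags or more, and homeobox letters rose from 6.84% to 11.2% over the same ranges. AP-1 letters stayed between 8.44% and 9.52%. The gain of H3K4me1 differed little with the motif present: it was 15.6% at regions with and 16.1% at those without an AP-1 match, 18.2% and 15.8% for the NANOG word and 17.5% and 16.0% for the octamer, with overlapping intervals in each pair. H3K4me1 in both arms was less frequent at regions with a SOX match (2.38%, 1.30 to 4.33%) than at those without (9.01%, 8.36 to 9.71%), and at regions with the NANOG word (5.58%, 4.20 to 7.39%) than at those without (9.01%, 8.34 to 9.73%). It was more frequent at the 15 regions with a CTCF match (7 regions, or 46.7%, 24.8 to 69.9%) and at the 27 with a KLF match (8 regions, or 29.6%, 15.9 to 48.5%). For these 4 motifs, and for FOX (2.59%, 0.883 to 7.33%), the intervals with and without a match did not overlap, out of 14 motifs examined. The share with H3K4me1 in both arms also fell with FLAG height, from 12.2% at 7 to 11 tags to 5.52% at 19 tags or more. Median FLAG summits with a match were 16 tags for SOX, 17 for NANOG, 12 for CTCF, 14 for KLF and 15 for FOX, against 15 without in each case. The part of height in these differences was not tested.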

How the data were processed

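Peak and summit lists from CUT&Tag of 8 groups, 1 merged library each, were used. The labels and the study's methods differ in the kit and the cell number they name. The authors trimmed reads with Trim Galore 0.6.4, aligned them to mm10 with Bowtie2 2.4.5, removed mitochondrial, repetitive and poorly mapped reads with SAMtools 1.16.1, merged replicates and called peaks with MACS 1.4.2 without a named control. The study states a minimum of 3 repeats for its experiments as a whole, and the number of replicates in each list was not given in the sources used here. In the deposited peak lists the score is that of the peak caller, with a lowest value of 50. The signal in the deposited summit lists is a pileup of tags that was not scaled to depth. The depth is unknown, and a deeper library can yield more peaks.

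Peaks were merged when they overlapped or touched, and overlaps needed 1 bp. The highest summit of each list was used in a region. Start sites and genes were those of GENCODE M21, and sequence was that of GRCm38, whose chromosomes are those of mm10. Position and motifs were counted on chromosomes 1 to 19 and X. Shares have Wilson intervals and differences Newcombe intervals (Python 3.11.15, statsmodels 0.14.6). No test between arms was possible. The regions named were the 10 with the highest lower score, the highest with each of 5 motifs and the highest at each listed pluripotency gene, and the genes named were the 10 with most regions and those of 7 lists. These rules, the classes and the lists were chosen with earlier results of these data known. The classification and the motif search were tested on simulated data. RNA was not analysed here, so the labelled cell type was not checked against markers.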

Additional observations from a re-analysis of the deposited data

How the results depend on the processing

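No paired analysis was possible because the lists are merged and carry no replicate numbers. Cut lists were put through the rule again, so the sets from stricter lists hold regions outside the 7310. The number of regions was 3897 where only peaks scoring 100 or more were admitted, 2261 where each list was cut to its 20000 best peaks and 2546 with summits of at least 15 tags, and 6883 to 7310 under the other settings. In that order, the share with H3K4me1 in NanogBiD alone became 7.06%, 11.5% and 8.56%, and that in NanogWT alone 4.54%, 2.74% and 8.48%, the AP-1 share 10.4%, 10.4% and 11.04%, and the promoter share 10.96%, 12.1% and 13.5%. Over all regions the shares with H3K4me1 in NanogBiD alone were 6.03%, 12% and 6.41% and in NanogWT alone 13.2%, 8.49% and 16.6%. With lists of 20000 peaks, the gained share relative to all other regions reversed, to -0.53 points (-1.83 to 0.89), with 12% over all regions and 11.5% at the 2261 regions drawn anew. H3K4me1 lists of equal length, added after the data had been seen, gave 18.2% and 3.995%, and 12.65% and 10.1% over all regions, whose order was thus turned round. Leaving out regions within 1 kb of H3K27ac gave a promoter share of 10.2%, and promoters of 1 kb gave 6.51%. Motif windows of 25 bp gave 4.72% for AP-1 and 1.72% for the octamer, and the BRG1 summit gave 8.25% and 2.90%. Of 176 recomputed differences, 165 kept their sign. Apart from the reversal above, those that did not had main intervals that included 0. Among them, with summits of at least 15 tags the AP-1 share was lower than at the regions that gained H3K27ac by 3.96 points (interval of the difference -6.54 to -1.56), and with lists of 20000 peaks the promoter share was higher than in the class without BRG1 by 2.76 points (1.04 to 4.52). With scores in place of heights, the H3K4me1 change at regions marked in both arms was 0.02 on the log2 scale. Merged libraries leave the variation between cultures unmeasured, and low summits dominate the gained H3K4me1.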

Other observations

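All 1481 words of 6 letters present at enough summits were ranked by their number at summits over that in the flanks, a word and its reverse complement counted together. The highest ratios were those of CGATTA (1.49% of summits against 0.451% of flanks), CCATTA (the NANOG word read on the other strand), ATTAGC (8.63% against 3.30%), GCATAA (9.06% against 3.55%) and GACTCA, which is part of the AP-1 site (12% against 4.74%). ATGAAT was found at 18.1% of summits against 7.33% of flanks, at 17.05% of the class with FLAG but without BRG1 and at 11.9% of the fusion-only regions that gained H3K27ac. The lowest ratios were those of CAGGTA (1.64% against 4.56%), CACCTG (2.61% against 6.38%) and AGGTAG (1.97% against 4.73%). CACCTG is an E-box that SNAI and ZEB factors of mesenchymal cells are known to bind, although their binding was not measured here. In the class with FLAG but without BRG1 the summit shares were 3.57% for CACCTG and 1.76% for CAGGTA, and at the regions that gained H3K27ac they were 4.18% and 1.39%. These words were chosen by their ratio, so the ratios are a description.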
